A study of Mus musculus with 9 samples.

Results

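The genes described here are 9 that mark mesenchymal progenitor cells or make up the supportive niche around blood-forming cells, namely Cxcl12, Kitl, Lepr, Cd34, Thy1, Vcam1, Prrx1, Nes and Nt5e. They were taken by symbol from the platform annotation of an Illumina bead array, which holds 20 probes for them among 25697 and names 16593 genes in all. All 9 passed the detection filter and are among the 10073 genes tested. The arrays measured total RNA of tomato-positive cells sorted from mouse periosteum, the cell layer on the outside of bone. The groups were 3 pools collected 2 days after a tibial fracture, 3 pools collected 6 days after it and 3 pools from unfractured bone. Every pool came from αSMACreERT2/Ai9 mice of strain B6;129S6 that had received tamoxifen at 75 µg per g in 2 doses. In these mice the smooth muscle actin promoter drives the inducible Cre, so the tomato reporter marks cells that used this promoter at the time of tamoxifen, together with their descendants. Each pool held cells of 4 to 9 animals aged 2 to 5.5 months, with 2 pools of males and 1 of females in every group. The unfractured pools were collected 2 days after tamoxifen and serve both fracture times, so the comparisons of day 2 and of day 6 with them share the same 3 arrays. The series holds no unfractured pool of day 6. At day 6 against unfractured, an effect of fracture and one of the later collection day therefore cannot be told apart.

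Cxcl12 and Kitl are secreted or membrane-bound ligands that hold blood-forming stem cells in the marrow through the receptors Cxcr4 and Kit. Lepr, the leptin receptor, and Nes, an intermediate filament protein, mark perivascular stromal cells that make both ligands in bone marrow. Vcam1, Cd34, Thy1 and Nt5e are surface proteins used to sort stromal progenitors, and Prrx1 is a homeobox transcription factor of limb mesenchyme and its skeletal progenitors.

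After normalisation Nt5e and Kitl carried the clearest differences of the 9 genes. The DNA around their starts is shown because the values that follow turn on these genes. Each window runs from 250 bases before to 50 bases after a start listed for the gene in GRCm38.p6, written 5′ to 3′ on the plus strand of both. The Nt5e window is chr9:88327359-88327658 and the Kitl window is chr10:100015571-100015870. The RefSeq span of the Kitl gene begins at base 100015615, inside its window. Part of the Kitl sequence printed before the window's start therefore lies within the gene span. Capitals mark matches, on either strand, to the GC box GGGCGG, the RBPJ motif TGGGAA or the TATA box TATAAA, and overlapping matches run together.
Nt5e: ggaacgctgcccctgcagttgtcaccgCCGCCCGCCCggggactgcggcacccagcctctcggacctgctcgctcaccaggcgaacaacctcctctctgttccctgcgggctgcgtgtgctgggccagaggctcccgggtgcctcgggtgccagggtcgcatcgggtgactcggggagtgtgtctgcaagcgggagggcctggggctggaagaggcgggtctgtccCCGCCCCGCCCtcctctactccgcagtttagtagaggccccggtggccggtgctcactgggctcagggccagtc
Kitl: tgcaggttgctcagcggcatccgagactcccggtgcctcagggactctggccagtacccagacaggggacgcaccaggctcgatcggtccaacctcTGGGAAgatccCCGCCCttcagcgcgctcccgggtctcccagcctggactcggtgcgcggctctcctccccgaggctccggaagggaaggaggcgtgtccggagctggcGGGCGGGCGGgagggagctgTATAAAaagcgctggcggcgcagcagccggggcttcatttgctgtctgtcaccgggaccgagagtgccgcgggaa
The Nt5e window held 4 GC boxes and the Kitl window 3, with 1 RBPJ motif and 1 TATA box in Kitl. Of 32851 mouse windows of this length, 35.7% held a GC box, 25.6% an RBPJ motif and 13.6% a TATA box. Neither window matched the hypoxia response core ACGTG (19.6% of all windows), the AP-1 motif TGANTCA (7.81%) or the STAT motif TTCNNNGAA (8.3%). Each held 1 E-box, CANNTG, which is not capitalised and which 72.3% of all windows hold. Promoter windows were listed for 7 of the 9 genes, and 5 of these 7 held a GC box.

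The gene whose promoter drives the Cre was present in the sorted cells. Acta2, which encodes smooth muscle actin, was detected in every pool, at log2 intensities of 14.09 to 16.09 by its brightest probe. Its other probes, also detected in every pool, ran from 10.21 to 15.50, and each was highest in unfractured pool 1. In each group 1 pool stood apart in RNA of macrophage and pan-leukocyte markers. The mean log2 level of 29 macrophage and pan-leukocyte markers was 11.76 in day 2 pool 1, 10.07 in day 6 pool 1 and 10.23 in unfractured pool 3, against 6.96 to 8.13 in the other 6 pools. These 3 pools, all of males, are called the leukocyte-rich pools below. Counts for each comparison are given with all 9 arrays and again with the 6 arrays left without them. This choice was made after seeing the data. Neutrophil markers did not single out the same unfractured pool, with mean log2 levels of 11.95, 10.06 and 11.92 in unfractured pools 1, 2 and 3. The name therefore refers to macrophage and pan-leukocyte markers only. Between 40.42% and 55.15% of the probes were detected on an array. Before normalisation the 75th percentile of intensity was 301.7 and 349.6 in unfractured pools 1 and 2. It was 892.2 and 759.1 in day 2 pools 2 and 3, and 679.5 and 647.5 in day 6 pools 2 and 3. On the 6 arrays an effect of fracture and one of array brightness therefore cannot be told apart in comparisons with unfractured pools. All tests below are two-sided limma tests with Benjamini-Hochberg adjustment over the 10073 genes, and the threshold was an adjusted p of 0.05. Genes are said to have risen or fallen where they were under it. Each array is 1 pool of animals, so the p-values measure the spread between pools. In pooled tissue cells such as these, fewer cells of a type and less RNA per cell cannot be told apart.

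**Figure D1:**
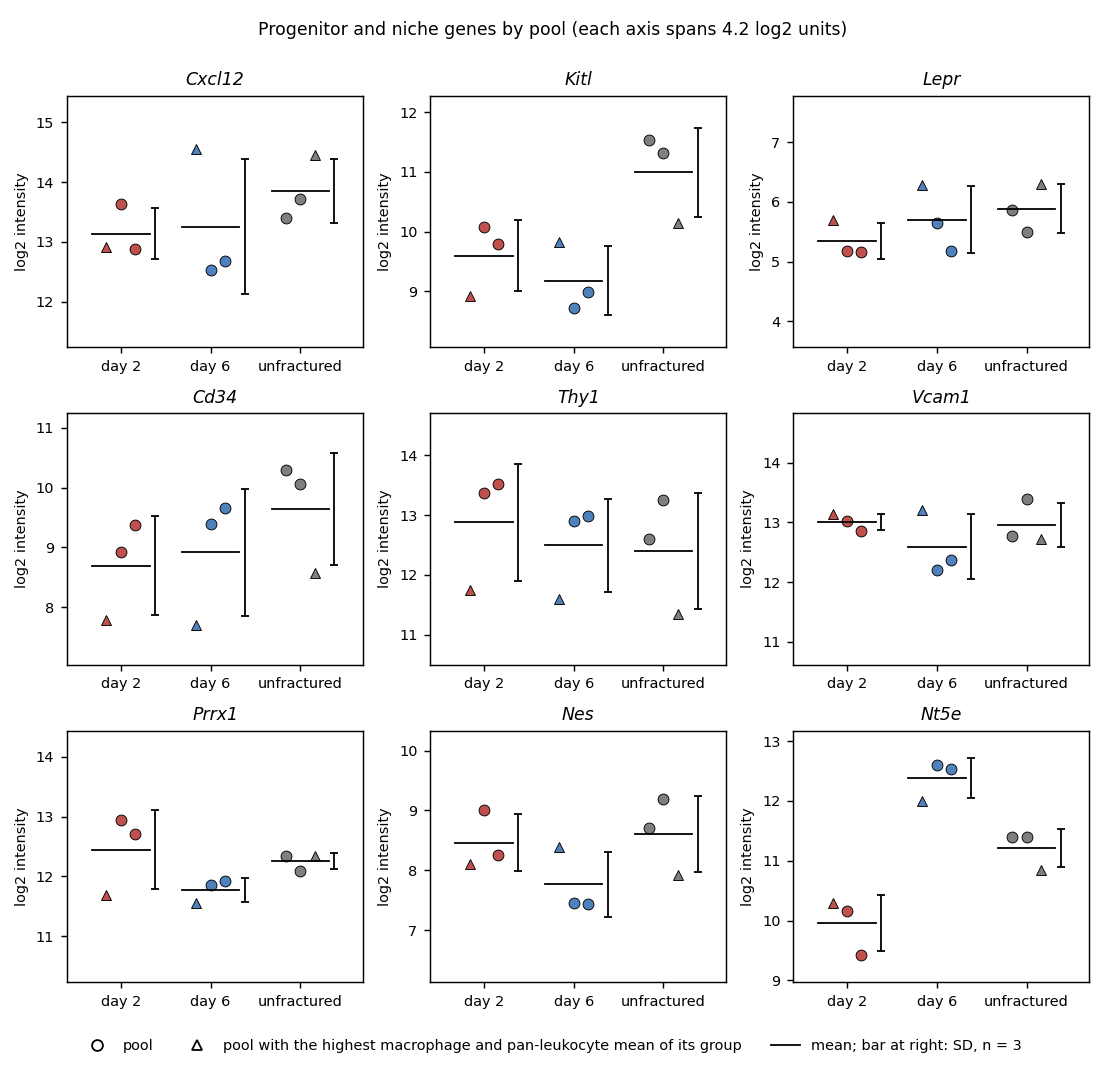
Normalised log2 intensity of the 9 genes (y axis, each spanning the same range) in day 2, day 6 and unfractured pools (x axis). Points are pools, triangles the leukocyte-rich pool of each group, lines the means and bars the SD of 3 pools. Nt5e separates the 3 groups, Kitl lies below the unfractured pools in all 6 fracture pools, and the triangles are the lowest points for Cd34 and Thy1 in every group.

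Across all 9 arrays 1 gene of the 9 passed a test, namely Nt5e, which rose at day 6 against day 2. In that comparison 1.42% of all genes tested passed (132 higher, which is 1.31%, and 11 lower), or 0.884% when pools of the same number were matched. None of the 9 genes passed for day 6 against unfractured, where 2.82% of all genes did (221 higher and 63 lower, a split of 264 higher and 7 lower with arrays aligned by their medians). None passed for day 2 against unfractured, where 0% of all genes did in limma, while 2 of the 9 genes and 1625 of the 10073 had an unadjusted p under 0.05. Without the leukocyte-rich pools, 3 of the 9 genes fell at day 2 against unfractured (Kitl, Cd34 and Nt5e, with 20.8% of all genes passing, 9.99% as lower). At day 6 against unfractured 2 fell and 1 rose on those 6 arrays (Kitl and Nes, and Nt5e, with 30.5% of all genes passing, 14.1% as lower and 16.4% as higher). Nt5e alone of the 9 rose at day 6 against day 2 on them (3.48% of all genes passing, 2.44% as higher). With shares of all genes as large as these against the unfractured pools, the 2 counts of 3 are no result about the 9 genes as a set.

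The median log2 change of the 9 genes was -0.54 at day 2 against unfractured, -0.48 at day 6 against unfractured and -0.39 at day 6 against day 2. Over all genes tested the medians were 0.06, 0.04 and -0.04 in the same order. The median of the 9 genes at day 2 is the value of the Lepr probe, whose signal was near background, so it is not read as a result. Leaving out 1 array could change these counts. Without unfractured pool 3, which is leukocyte-rich, 2 of the 9 genes (Kitl and Nt5e, both lower) and 924 of all genes passed at day 2 against unfractured. Without it 1 of the 9 (Kitl, lower) and 1568 of all genes passed at day 6 against unfractured.

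**Figure D2:**
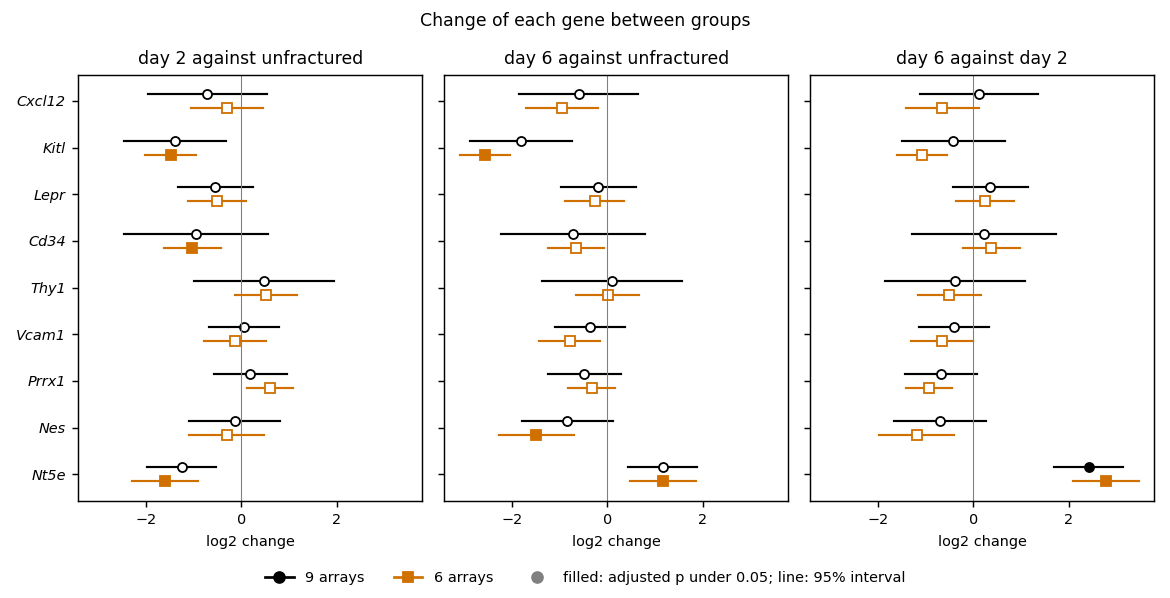
Log2 change of each gene (x axis) in the 3 comparisons, from all 9 arrays (circles) and from the 6 arrays without the leukocyte-rich pools (squares), with 95% intervals. Filled symbols passed at an adjusted p under 0.05. Nt5e at day 6 against day 2 is filled in both sets, and Kitl lies below 0 in both sets of every panel.

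Cxcl12, the chemokine that retains blood-forming cells in the marrow, was detected in every pool and passed no comparison. Its log2 levels were 12.91, 13.64 and 12.88 in day 2 pools, 14.56, 12.53 and 12.69 in day 6 pools and 13.40, 13.73 and 14.45 in unfractured pools. The groups overlapped, and the highest value of the day 6 and of the unfractured group belonged to the leukocyte-rich pool. The change was -0.72 ± 0.55 (SE) at day 2 against unfractured (adjusted p = 0.513) and -0.60 ± 0.55 at day 6 against unfractured (adjusted p = 0.571). Between day 6 and day 2 it differed by 0.12 ± 0.55, and by -0.65 ± 0.30 on the 6 arrays (adjusted p = 0.288), so the direction turned with the leukocyte-rich pools. Its 3 probes in use did not give one direction at day 6 against unfractured, where they ran from -0.60 to 0.43. Of 5 Cxcl12 probes in all, 1 was detected in no pool and 1 in a single pool.

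Its receptor Cxcr4 was read at 11.83, 7.83 and 8.08 in day 2 pools, 11.36, 7.71 and 8.11 in day 6 pools and 9.63, 8.27 and 10.18 in unfractured pools. The leukocyte-rich pool was the highest of each group, and no comparison of Cxcr4 passed. Whether that RNA came from white blood cells was not tested.

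Kitl is the ligand of the receptor Kit and is known as stem cell factor. After normalisation it was lower in all 6 fracture pools than in any unfractured pool. Its log2 levels were 8.93, 10.08 and 9.79 in day 2 pools, 9.82, 8.72 and 8.99 in day 6 pools and 11.53, 11.31 and 10.14 in unfractured pools. Neither fracture group overlapped the unfractured one, while day 6 and day 2 overlapped. Over all genes, 7.69% lay wholly below the unfractured pools at day 2 and 11.8% at day 6. The change was -1.39 ± 0.47 at day 2 (adjusted p = 0.255) and -1.81 ± 0.47 at day 6 (95% interval -2.89 to -0.74, adjusted p = 0.0807), so neither passed on 9 arrays. With the 9 arrays aligned by their medians the changes were -0.25 (adjusted p = 0.76) and -0.86 (adjusted p = 0.284). Before normalisation the intensities were 409, 2316 and 1584 in day 2 pools, 613, 739 and 820 in day 6 pools and 955, 1457 and 922 in unfractured pools. On that scale day 2 pools 2 and 3 stood above every unfractured pool.

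Without the leukocyte-rich pools Kitl fell by 2.56 ± 0.21 on the log2 scale at day 6 against unfractured, which is 5.90-fold lower (adjusted p = 0.00307). It fell by 1.48 ± 0.21 at day 2 against unfractured (adjusted p = 0.0211) on the same arrays. With those arrays aligned by their medians in place of their whole distributions, the day 6 change was -1.15 (adjusted p = 0.0188) and the day 2 change turned to 0.14. That alignment moved the median of all genes by 1.08 and 1.23, and relative to it Kitl stood at -2.24 at day 6 and -1.09 at day 2. Between the leukocyte-rich pools alone the difference was -1.21 at day 2 and -0.31 at day 6. A second Kitl probe was detected in no pool.

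Markers of endothelium, which itself makes Kitl, were highest in unfractured pools 1 and 2, as Kitl was. The mean log2 level of 18 endothelial markers was 9.67, 9.36 and 8.44 in day 2 pools, 10.32, 8.21 and 8.76 in day 6 pools and 11.41, 11.02 and 10.06 in unfractured pools. On 9 arrays 1 of the 18 fell at day 6 against unfractured, where 2.82% of all genes passed. On the 6 arrays 16 of the 18 fell at day 2 and 16 at day 6, where 9.99% and 14.1% of all genes fell. Pecam1, an adhesion protein of endothelial cells, was detected in every pool and read 10.55, 9.25 and 7.98 at day 2, 11.31, 7.67 and 8.25 at day 6 and 11.96, 11.74 and 10.48 in unfractured pools. The part of endothelial, pericyte, smooth muscle or satellite cell RNA in the Kitl values was not tested. The genes whose pattern over the 9 arrays was most like that of Kitl were Sema3f, Ece1 and Tspan12, with Pearson r of 0.99, 0.98 and 0.98.

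**Figure D3:**
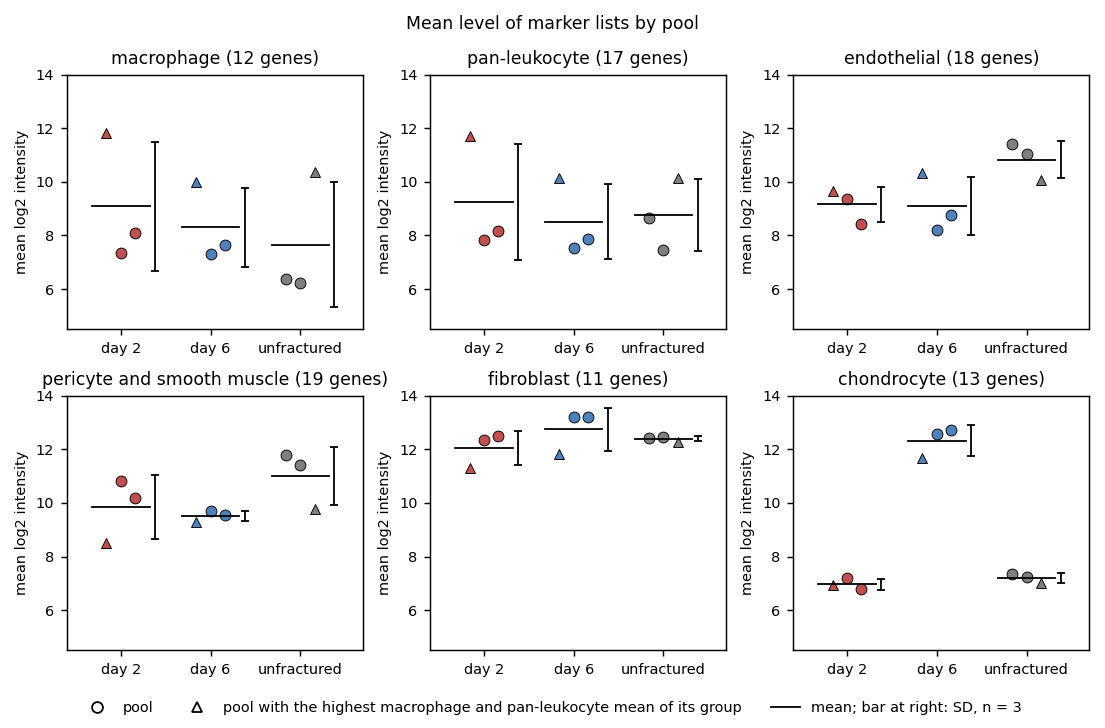
Mean log2 intensity of 6 marker lists (y axis) in day 2, day 6 and unfractured pools (x axis), with lines for means, bars for the SD of 3 pools and triangles for the leukocyte-rich pools. The triangles hold the highest macrophage and pan-leukocyte means. Unfractured pools 1 and 2 hold the highest endothelial means and the highest pericyte and smooth muscle means. The day 6 pools hold chondrocyte means of 11.67 to 12.72 against 6.77 to 7.36 elsewhere.

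Lepr, the receptor of the fat hormone leptin, was at or near background. One of its probes was detected in no pool. The other had detection p-values of 0.0551, 0.222 and 0.254 in day 2 pools, 0.00376, 0.0351 and 0.253 in day 6 pools and 0.142, 0.157 and 0.00752 in unfractured pools. It therefore counted as detected in 3 pools, which were day 6 pools 1 and 2 and unfractured pool 3. Differences of this probe are those of a signal near background and are not read as a change in Lepr, so no fold is given. Its adjusted p-values were 0.445 at day 2 against unfractured, 0.796 at day 6 against unfractured and 0.812 at day 6 against day 2. The array shows no Lepr signal well above background in these sorted cells, which leaves its level there unmeasured.

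Vcam1, an adhesion protein that holds cells bearing the integrin VLA-4, showed no change past the spread between pools. Its log2 levels were 13.13, 13.03 and 12.86 in day 2 pools, 13.21, 12.21 and 12.37 in day 6 pools and 12.77, 13.39 and 12.72 in unfractured pools. All groups overlapped. The differences were 0.05 ± 0.32 at day 2 against unfractured (95% interval -0.68 to 0.78, adjusted p = 0.951), -0.36 ± 0.32 at day 6 against unfractured (adjusted p = 0.557) and -0.41 ± 0.32 at day 6 against day 2 (adjusted p = 0.734). On the 6 arrays they were -0.13 (adjusted p = 0.723), -0.79 (95% interval -1.43 to -0.15, adjusted p = 0.0688) and -0.66 (adjusted p = 0.221) in the same order. The second turned to 0.62 with those arrays aligned by their medians.

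Cd34, a sialomucin of vascular and progenitor cell surfaces, varied more within groups than between them. Its log2 levels were 7.78, 8.93 and 9.37 in day 2 pools, 7.70, 9.38 and 9.67 in day 6 pools and 10.30, 10.07 and 8.58 in unfractured pools. The lowest value of each group was that of the leukocyte-rich pool (differences of -1.37, -1.82 and -1.60 from the mean of the other 2 pools at day 2, day 6 and unfractured). On 9 arrays the change was -0.95 ± 0.66 at day 2 against unfractured (adjusted p = 0.477) and -0.73 ± 0.66 at day 6 against unfractured (adjusted p = 0.569). Among the 6 arrays Cd34 fell by 1.03 ± 0.24 at day 2 against unfractured (adjusted p = 0.0393), which turned to 0.51 with arrays aligned by their medians, and the day 6 change of -0.66 did not pass (adjusted p = 0.0909).

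Thy1, a small anchored surface protein of stromal cells and neurons, followed the same split by pool. Its log2 levels were 11.75, 13.36 and 13.53 in day 2 pools, 11.59, 12.90 and 12.98 in day 6 pools and 12.60, 13.26 and 11.34 in unfractured pools. Again the leukocyte-rich pool was the lowest of each group, with differences of -1.70, -1.35 and -1.59 from the mean of the other pools at day 2, day 6 and unfractured. No comparison passed on either set of arrays, with changes of 0.48 ± 0.65 at day 2 (adjusted p = 0.720) and 0.09 ± 0.65 at day 6 (adjusted p = 0.949) against unfractured.

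Nt5e, the enzyme CD73 that turns extracellular AMP into adenosine, was lowest at day 2 and highest at day 6. Its log2 levels were 10.29, 10.17 and 9.43 in day 2 pools, 11.996, 12.60 and 12.54 in day 6 pools and 11.40, 11.40 and 10.85 in unfractured pools. None of the 3 groups overlapped another. Among all genes, 14.2% lay wholly above the unfractured pools at day 6, and 11.8% had all day 6 pools above all day 2 pools. The means were 12.38 ± 0.33 at day 6 and 9.96 ± 0.47 at day 2 (SD, n = 3 pools each), against 11.22 ± 0.32 in unfractured pools.

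Nt5e rose by 2.42 ± 0.32 (SE) on the log2 scale at day 6 against day 2, or 5.34-fold (95% interval 1.69 to 3.14, adjusted p = 0.00767). The rise was 2.77 on the 6 arrays (adjusted p = 0.0131), and between the leukocyte-rich pools alone the difference was 1.70. Against unfractured pools the change was -1.25 ± 0.32 at day 2 (adjusted p = 0.192) and 1.16 ± 0.32 at day 6 (adjusted p = 0.0908), neither of which passed on 9 arrays. On the 6 arrays Nt5e fell by 1.60 at day 2 (adjusted p = 0.0269), a change of 0.024 with arrays aligned by their medians, and rose by 1.17 at day 6 (adjusted p = 0.0295), a change of 2.67 so aligned.

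The call for day 6 against day 2 held in 21 of 24 alternatives. It was lost without day 6 pool 2 (2.30, adjusted p = 0.0593), without day 6 pool 3 (2.34, adjusted p = 0.0581) and with arrays aligned by their medians (2.32, adjusted p = 0.0638). Before normalisation the intensities of the Nt5e probe were 806, 2479 and 1262 in day 2 pools, 2389, 9476 and 8429 in day 6 pools and 890, 1540 and 1379 in unfractured pools. On that scale day 6 and day 2 overlapped, since day 2 pool 2 stood above day 6 pool 1. Overall brightness differed among the arrays, whose 75th percentiles ran between 301.7 and 892.2.

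A second Nt5e probe gave the same direction in each comparison. It read 8.47, 8.57 and 7.63 in day 2 pools, 10.31, 10.58 and 10.40 in day 6 pools and 9.96, 9.91 and 9.66 in unfractured pools. Tested as 1 of 13661 probes, it rose by 2.21 ± 0.29 at day 6 against day 2 (adjusted p = 0.00833). Its difference was -1.62 at day 2 (adjusted p = 0.131) and 0.59 at day 6 (adjusted p = 0.299) against unfractured. The probes correlated at r = 0.96 over the 9 arrays.

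Cartilage markers rose strongly in the same day 6 pools. The mean log2 level of 13 chondrocyte markers was 6.92, 7.20 and 6.77 in day 2 pools, 11.67, 12.58 and 12.72 in day 6 pools and 7.36, 7.25 and 7.00 in unfractured pools. Of the 13, 10 rose at day 6 against day 2, where 1.31% of all genes rose. Acan, the main proteoglycan of cartilage, read 9.59, 9.28 and 7.52 at day 2, 14.84, 14.92 and 15.09 at day 6 and 4.86, 5.70 and 5.14 in unfractured pools. At day 2 against unfractured none of the 13 passed on 9 arrays, and on the 6 arrays 1 rose and 4 fell. Of all genes, 20.8% passed there, 9.99% as lower. Their part in the rise of Nt5e at day 6 was not tested. The genes most like Nt5e over the 9 arrays were Cdc42ep3, Ccpg1 and Mdk, with Pearson r of 0.97, 0.96 and 0.96.

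**Figure D4:**
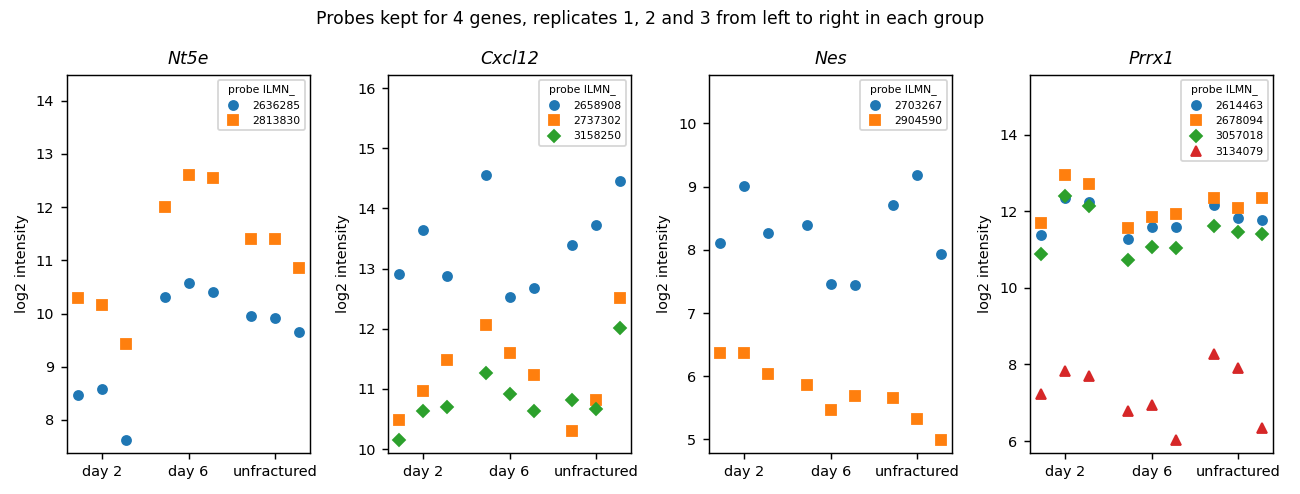
Log2 intensity (y axis) of each probe in use for Nt5e, Cxcl12, Nes and Prrx1, with pools 1, 2 and 3 of day 2, day 6 and unfractured from left to right. The 2 Nt5e probes order the groups alike, whereas the probes of Cxcl12 and of Nes differ in the sign of a change against unfractured.

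Prrx1, the limb mesenchyme transcription factor, was detected by all 4 of its probes in every pool. The probe in use for the tests, that with the highest mean, read 11.70, 12.94 and 12.70 in day 2 pools, 11.55, 11.85 and 11.92 in day 6 pools and 12.34, 12.09 and 12.34 in unfractured pools. The day 6 pools lay below all unfractured pools, as 11.8% of all genes did, with a change of -0.48 ± 0.33 (adjusted p = 0.448) that turned to 0.49 with arrays aligned by their medians. The other 2 comparisons were 0.19 ± 0.33 at day 2 against unfractured (adjusted p = 0.791) and -0.67 ± 0.33 at day 6 against day 2 (adjusted p = 0.489). On the 6 arrays the change was -0.33 at day 6 against unfractured (adjusted p = 0.245). It was 0.61 at day 2 against unfractured (adjusted p = 0.0762) and -0.94 at day 6 against day 2 (adjusted p = 0.0661) on them. The 4 probes shared the sign of the change in each comparison, with none passing.

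Nes was read by 2 probes, which differed in sign against unfractured and shared it at day 6 against day 2 (-0.70 and -0.59, neither passing). The one with the higher mean read 8.11, 9.02 and 8.26 in day 2 pools, 8.39, 7.46 and 7.44 in day 6 pools and 8.70, 9.18 and 7.93 in unfractured pools. All groups overlapped, and the changes against unfractured were -0.14 ± 0.42 at day 2 (adjusted p = 0.884) and -0.84 ± 0.42 at day 6 (adjusted p = 0.295). Without the leukocyte-rich pools Nes fell by 1.49 ± 0.31 at day 6 against unfractured (adjusted p = 0.0220), a change of -0.28 with arrays aligned by their medians (adjusted p = 0.609), while between the leukocyte-rich pools alone the difference was 0.47. The other probe, detected in 5 pools, gave 0.93 at day 2 and 0.34 at day 6 against unfractured (adjusted p = 0.197 and 0.495), and the 2 probes correlated at r = 0.21. Over the 9 arrays the first probe ran with Vcam1 (r = 0.81) and Kitl (r = 0.79), and day 6 pool 1 was the highest of its group for all 3 genes and for the endothelial mean.

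Genes that act with these 9 were followed as lists. Of 22 receptors, enzymes and filament partners on the array, 17 were measured and none passed any comparison on 9 arrays. The lowest adjusted p was that of Selp at day 6 against unfractured (0.0674). Their median change was -0.36 at day 2 against unfractured, -0.45 at day 6 against unfractured and 0.00 at day 6 against day 2, on a median of all genes of 0.06, 0.04 and -0.04. On the 6 arrays 4 fell at day 2 against unfractured, namely Selp, the P-selectin of endothelium and platelets (-4.01), Lep, which encodes leptin (-1.98), Des, the muscle filament desmin (-1.10) and Stat3, a mediator of leptin signals (-0.96). At day 6 against unfractured these 4 fell too (-4.52, -1.64, -2.95 and -0.90), with Synm, a filament partner of desmin (-1.10), and Adam17, a protease that sheds membrane ligands, rose by 0.67. At day 6 against day 2 only Des passed on those arrays, at -1.85. Lep was detected in 8 of the 9 pools. It read 5.43 and 5.89 in day 2 pools 2 and 3 and 6.10 and 5.91 in day 6 pools 2 and 3. These values are near background, so the sizes of its falls are not read as measured folds. With the arrays aligned by their medians, Des and Stat3 turned to 0.50 and 0.57 at day 2 and Stat3 and Synm to 0.51 and 0.32 at day 6 against unfractured. These 6 names were chosen after their values were seen, and the counts stand beside 20.8% of all genes passing at day 2, 30.5% at day 6 against unfractured and 3.48% at day 6 against day 2 on those arrays.

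Among 25 surface markers of skeletal and stromal progenitors, all measured, Cspg4 and Itga6 passed on 9 arrays, where 2.82% of all genes passed at day 6 against unfractured and 1.42% at day 6 against day 2. Cspg4, the pericyte proteoglycan NG2, read 7.82, 8.77 and 8.09 in day 2 pools, 10.51, 10.91 and 11.16 in day 6 pools and 9.37, 8.87 and 8.39 in unfractured pools. The day 6 pools lay above all others. Among all genes, 14.2% had the day 6 pools wholly above the unfractured pools and 11.8% wholly above the day 2 pools. Cspg4 rose by 2.64 against day 2 (adjusted p = 0.00846) and by 1.98 against unfractured (adjusted p = 0.0228). Itga6, an integrin subunit that binds laminin, read 7.58, 7.07 and 7.43 in day 6 pools and 9.40, 9.64 and 8.75 in unfractured pools, and fell by 1.91 (adjusted p = 0.0347). Cspg4 also stands among 19 pericyte and smooth muscle markers, of which 1 rose and 13 fell at day 6 against unfractured on the 6 arrays. Of all genes, 16.4% rose and 14.1% fell there. The rise of Cspg4 against day 2 was lost without day 2 pool 3 (adjusted p = 0.0569) and without day 6 pool 2 (0.0593) or pool 3 (0.0601), and with arrays aligned by their medians (0.0542).

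Of 23 measured stromal transcription factors 1 passed. Sox9, the factor that starts cartilage formation, read 10.58, 11.12 and 11.13 in day 6 pools and 6.07, 8.36 and 7.77 in unfractured pools, and rose by 3.54 (adjusted p = 0.0208). Of 28 measured secreted niche factors 1 rose and 2 fell at day 6 against unfractured, the comparison in which Sox9 passed and in which 2.82% of all genes did. Rspo3, which strengthens Wnt signals, read 8.54, 8.87 and 9.14 in day 6 pools and 5.96, 6.97 and 7.08 in unfractured pools, and rose by 2.18 (adjusted p = 0.0143). In unfractured pool 1 both Rspo3 and Sox9 were near background, which limits the sizes of their rises. Without that pool the rises were 1.82 for Rspo3 and 2.88 for Sox9. Bmp4, a bone morphogenetic protein, fell by 2.24 (adjusted p = 0.0274), and Vegfc, a growth factor of lymphatic vessels, fell by 1.94 (adjusted p = 0.0190). No gene of these 3 lists passed at day 2 against unfractured on 9 arrays. At day 6 against unfractured the median log2 change was 0.02 for the surface markers, -0.30 for the transcription factors and -0.21 for the secreted factors, beside 0.04 for all genes. On the 6 arrays 2 surface markers rose and 6 fell in that comparison, 3 transcription factors rose and 5 fell, and 7 secreted factors rose and 8 fell, where 30.5% of all genes passed.

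The calls of Cspg4, Itga6, Sox9, Rspo3, Vegfc and Bmp4 at day 6 against unfractured kept their direction whichever array was left out, but not their side of the threshold. All 6 were lost without day 6 pool 2 (adjusted p of 0.0790 to 0.179) and without day 6 pool 3 (0.0896 to 0.138). Without unfractured pool 1 the calls of Itga6, Vegfc and Bmp4 were lost (up to 0.107), and without unfractured pool 2 those of Itga6, Vegfc, Bmp4 and Cspg4 (up to 0.119). Bmp4 was also lost without day 2 pool 2 (0.0554) and pool 3 (0.0570), and Itga6 without day 2 pool 3 (0.0514) and day 6 pool 1 (0.0563). With arrays aligned by their medians the 3 falls no longer passed and were smaller, at -1.02 for Itga6 (adjusted p = 0.205), -0.98 for Vegfc (0.213) and -1.30 for Bmp4 (0.121).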

How the data were processed

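Total RNA of the sorted cells was hybridised to Illumina bead arrays, 1 array per pool. The deposited table of probe intensities is linear and not normalised, and comes with detection p-values, per the file headers, exported from GenomeStudio per the submitters' processing notes. The deposited value table, quantile-normalised linear intensities, served as an alternative. Intensities were background-corrected with neqc (limma 3.58.1, R 4.3.3; offset 16, control statistics inferred from the deposited detection p-values), quantile-normalised and taken to log2. Of 25697 probes, 23978 had 1 gene symbol and 1719 none. Kept were the 14519 probes detected (p under 0.05) on 3 or more of the 9 arrays, and each gene took its probe with the highest mean, which left 10073 genes. The model held a mean for each group over the 9 arrays (6 residual degrees of freedom), and errors are the fit's SE unless called SD. The fit was tested on simulated data. Probe positions were not used.

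The 9 genes, the lists and the 24 alternatives were chosen with earlier results of these data known. The text names every one of the 9 genes and its probes, up to 4 genes by adjusted p of those that passed in each list, and the 3 genes most correlated with a gene, of which those of Kitl and Nt5e are printed. Of the animals, sex and number per pool entered as alternatives. Pools of the same number deviated together between day 6 and day 2 (correlations of their deviations 0.63, 0.52 and 0.51), and matching by number was 1 of the alternatives. Day 6 pool 2 with day 2 pool 3 and day 6 pool 3 with day 2 pool 2 reached 0.57 and 0.33, and pool 1 is leukocyte-rich in both groups. These correlations therefore cannot show that the numbers mark pairs. Pools of the same number did not deviate together between day 2 and unfractured (-0.31 to 0.40) or day 6 and unfractured (-0.28 to 0.26).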

Additional observations from a re-analysis of the deposited data

Results flagged for a closer look

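Nt5e is the 1 gene of the 9 whose change from the unfractured pools differed between the fracture times by a test of the difference itself. Its log2 change against the same unfractured arrays was 1.16 at day 6 and -1.25 at day 2, neither of which passed. The difference between the times was 2.42 (limma with Benjamini-Hochberg adjustment, adjusted p = 0.00767). The unfractured mean drops out of that difference, so it is the comparison of day 6 with day 2 given above and not a separate result. All 3 day 6 pools lay above all 3 day 2 pools, as for 11.8% of all genes. The call was lost in the 3 alternatives named above.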

How the results depend on the processing

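Over 645 values of the 9 genes under 24 alternatives, 570 kept their direction and side of the threshold, 30 newly passed in their direction, 3 no longer passed and 42 turned their sign. Of those 42, 3 also passed with the turned sign, all on the 6 arrays aligned by their medians, namely Cxcl12 and Nes at day 2 and Prrx1 at day 6 against unfractured (adjusted p = 0.0163, 0.0267 and 0.0238). The cause was not tested. The alternatives that dropped the leukocyte-rich pools were added after seeing the data. Of the 9 genes, with arrays aligned by their medians 1 passed at day 6 against unfractured and 0 at day 6 against day 2 (80 of all genes in the second). With array quality weights 4, 5 and 5 of the 9 passed at day 2 against unfractured, day 6 against unfractured and day 6 against day 2, and 5133, 5354 and 3435 of all genes. Without the leukocyte-rich pools 3 of the 9 passed at day 2 and 3 at day 6 against unfractured, with 2095, 3068 and 351 of all genes in the 3 comparisons. With both changes 5, 4 and 2 of the 9 and 6144, 5918 and 652 of all genes passed. Fitting only the groups compared gave 139 of all genes at day 6 against unfractured and 216 at day 6 against day 2. With the replicate number as a block 89 passed at day 6 against day 2, and the block changed no call among the 9 genes. Leaving out 1 array gave 0 to 2 of the 9 at day 2 against unfractured, 0 to 1 at day 6 against unfractured and 0 to 1 at day 6 against day 2, and of all genes 0 to 924, 53 to 1568 and 47 to 189.

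Aligning the arrays by their medians moved the median of all genes by 0.83 at day 2 and 0.72 at day 6 against unfractured and by -0.13 at day 6 against day 2. It turned the sign at day 2 against unfractured of Cxcl12 (0.25), Cd34 (0.14), Nes (0.84), Cspg4 (0.38), Des (0.20), Stat3 (0.23) and Synm (0.39). At day 6 against unfractured it turned Cxcl12 (0.42), Cd34 (0.23), Vcam1 (0.60), Prrx1 (0.49), Stat3 (0.40) and Synm (0.056), and at day 6 against day 2 Adam17 (-0.051). On the 6 arrays so aligned, day 2 against unfractured turned for Cxcl12 (1.22), Kitl (0.14), Cd34 (0.51), Nes (1.13), Nt5e (0.024), Cspg4 (0.77), Itga6 (0.11), Vegfc (0.59), Des (0.50), Stat3 (0.57) and Synm (1.08). Day 6 against unfractured turned for Cxcl12 (0.48), Cd34 (0.71), Vcam1 (0.62), Prrx1 (1.10), Stat3 (0.51) and Synm (0.32), and day 6 against day 2 for Cxcl12 (-0.74), Selp (-0.70) and Stat3 (-0.061). On the 6 arrays as normalised otherwise, Vcam1 turned at day 2 against unfractured (-0.13), and Cxcl12 (-0.65) and Selp (-0.51) at day 6 against day 2. The mean of the probes turned Nes at day 2 against unfractured (0.39), and weights by animals pooled turned Cxcl12 at day 6 against day 2 (-0.077). Array weights turned Vcam1 at day 2 (-0.43) and Thy1 at day 6 (-0.28) against unfractured and Cxcl12 at day 6 against day 2 (-0.34). Leaving out 1 array spanned 0 for Thy1 (-0.049 to 1.05), Vcam1 (-0.071 to 0.26), Prrx1 (-0.057 to 0.57), Nes (-0.48 to 0.15) and Synm (-1.26 to 0.082) at day 2 against unfractured. It did so for Thy1 (-0.44 to 0.54) at day 6 against unfractured, and for the near-background signal of the Lepr probe (-0.48 to 0.080), which is not read as a change in Lepr. At day 6 against day 2 it did so for Cxcl12 (-0.53 to 0.48), Cd34 (-0.23 to 0.83), Thy1 (-0.95 to 0.061), Lep (-0.14 to 0.54), Selp (-0.34 to 0.83) and Synm (-0.98 to 0.27). The signal of Lepr and of the second Nes probe is near background, which limits both.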
